A study of Mus with 8 samples.

Results

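Dnajc12, which encodes a co-chaperone of the enzymes that hydroxylate aromatic amino acids, is described here together with 8 liver genes of the same metabolic route in mice with colitis. The 9 genes were taken by symbol from a table of 54532 genes. Gch1, Pcbd1 and Qdpr serve the cofactor tetrahydrobiopterin, and Tat, Hpd, Hgd, Gstz1 and Fah break tyrosine down. The genes were selected on the counts of these same 8 libraries, with the difference between the groups known, so that difference is given as a description. All 9 genes passed the filter on low counts that left 11729 genes to test, and none passed it only through one group.

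Liver RNA came from 4 libraries of mice given dextran sulfate sodium (DSS), alcohol and a high-fat diet, labelled DSSHA 35, 45, 65 and 71 and here called diet-alcohol livers, and from 4 libraries of mice given DSS, labelled DSS 15, 48, 49 and 50. DSS is a polysaccharide that injures the colonic epithelium when taken by mouth. It was given at 2.5% and stopped on day 6, before the dietary intervention, so both groups had been through DSS colitis. Alcohol and the high-fat diet were given together and cannot be told apart, and the labels used here give neither the feed of the DSS group nor strain, age or the length of the intervention. The labels name no batch and do not say outright that each library was a separate mouse, so the tests measure the spread between these libraries.

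The liver converts phenylalanine to tyrosine with phenylalanine hydroxylase, which uses tetrahydrobiopterin as its cofactor. Gch1 starts the synthesis of that cofactor, and Pcbd1 and Qdpr return it to the reduced form after each round. Tyrosine then loses its amino group to Tat, and Hpd, Hgd, Gstz1 and Fah carry the carbon skeleton in that order to fumarate and acetoacetate. Dnajc12 belongs to the J-domain family, whose members hand client proteins to HSP70 chaperones, and in humans loss of DNAJC12 raises blood phenylalanine.

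Between 12502300 and 16967839 reads were counted in each library. Transcripts of the mitochondrial genome made up 30.2 to 73.0% of the counts in diet-alcohol libraries and 55.8 to 79.1% in DSS libraries. Diet-alcohol library 35 stood apart, with only 784 genes in the range of 1 to 9 counts, where each of the other 7 libraries had at least 4319. The labelled tissue was checked against 7 hepatocyte genes. Their summed level was 25400 to 32000 CPM (counts scaled to effective library size) in diet-alcohol livers and 43600 to 69800 CPM in DSS livers, without overlap. All 7 had negative log2 fold changes, with a median of -0.62. Alb, the largest part of the sum, averaged 18457 CPM in diet-alcohol livers and 42304 CPM in DSS livers. Of the 7, 0 were called by edgeR, 2 had an unadjusted p under 0.05 and 1, Alb, was called by DESeq2 (0 by limma-voom). In bulk tissue, fewer cells of a type and less RNA of its marker genes per cell cannot be told apart.

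Dnajc12 rose in the diet-alcohol livers to 7.95 times its level in DSS livers, while none of the 8 enzyme genes passed the test. The 8 had log2 fold changes between -0.45 for Hgd and 0.31 for Gstz1, with a median of -0.03, where all tested genes had a median of -0.01. One of 9 genes was thus called, where 1.26% of all tested genes were called in either direction and 0.588% were called higher and 0.674% lower (edgeR quasi-likelihood F test, Benjamini-Hochberg adjusted p under 0.05). Dnajc12 was also the 1 gene of the 9 whose groups did not overlap, a pattern shown by 8.77% of tested genes (4.14% higher and 4.63% lower in diet-alcohol livers). Nothing about the 9 genes as a set is read from these shares.

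**Figure D1:**
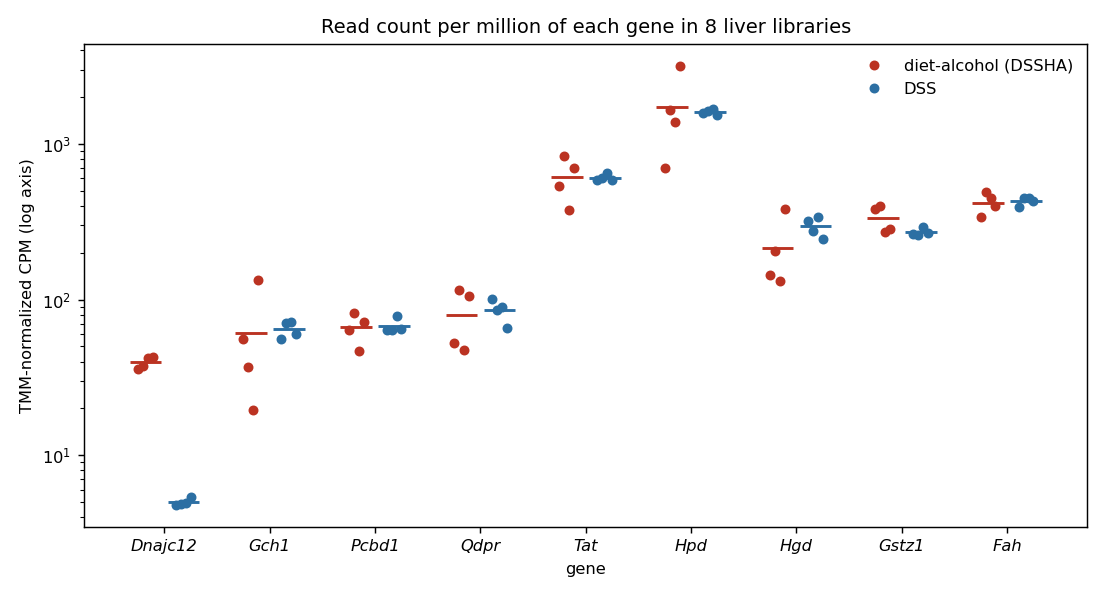
TMM-normalized CPM (log axis) of each of the 9 genes, with 4 diet-alcohol libraries on the left and 4 DSS libraries on the right of each pair; points are libraries and bars are group means. Dnajc12 sits at 35.7 to 42.9 CPM in diet-alcohol livers and 4.80 to 5.36 CPM in DSS livers, and the groups of every other gene overlap.

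Dnajc12 (ENSMUSG00000036764; chromosome 10, 63382443 to 63410576, plus strand, GRCm38) was read 637, 911, 382 and 1082 times in diet-alcohol libraries 35, 45, 65 and 71, against 77, 69, 41 and 36 times in DSS libraries 15, 48, 49 and 50. Scaled to effective library size, it had 35.7, 37.5, 42.2 and 42.9 CPM in the diet-alcohol libraries, against 4.80, 4.84, 4.91 and 5.36 CPM in the DSS libraries. Every diet-alcohol library was above every DSS library, and the 4 libraries of either group lay close together. The means were 39.6 ± 3.55 CPM in diet-alcohol livers and 4.98 ± 0.260 CPM in DSS livers (SD, n = 4 each). On the log2 scale the difference was 2.99 ± 0.20 (SE), at an edgeR adjusted p of 3.36e-05. It ranked 3rd of the 11729 tested genes by p-value and 39th by the size of its rise. The authors' deposited table gave it a log2 fold change of 2.99 and an adjusted p of 9.81e-30.

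The difference in Dnajc12 varied little with the settings and libraries tried. Its log2 fold change lay between 2.95 and 3.04 when any 1 library was left out, and it passed the test each time (edgeR adjusted p up to 0.000787). Without library 35 it was 3.04, and without libraries 35 and 65 together, chosen after the data were seen, 3.02. With the mitochondrial share as a covariate it was 3.04 (edgeR adjusted p = 0.000329, in a range up to 0.000787 over all 19 alternatives). Diet-alcohol library 65, with a mitochondrial share of 73.0%, lay within the DSS range of that share and had 42.2 CPM of Dnajc12, against 4.91 CPM in DSS 49 at a share of 69.9% and 5.36 CPM in DSS 50 at 79.1%.

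A ratio taken inside each library does not depend on library scaling. Per 1000 counts of the other 8 genes, Dnajc12 had 15.7, 9.84, 15.4 and 8.20 counts in diet-alcohol libraries 35, 45, 65 and 71, against 1.43, 1.41, 1.35 and 1.65 counts in DSS libraries 15, 48, 49 and 50. The groups did not overlap on this measure either. It varied more among diet-alcohol livers than the CPM did, and the 8 genes in its denominator also varied there.

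Of the genes near Dnajc12, Sirt1 (chromosome 10, 63319005 to 63381704) is a deacetylase gene whose annotated span lies next to that of Dnajc12, at lower coordinates. It stood at 0.36 ± 0.40 on the log2 scale (SE), at an edgeR adjusted p of 0.802. Herc4, the next gene out, stood at -0.28 ± 0.27 (SE), at an adjusted p of 0.762. Both were looked at after the Dnajc12 value was known. No other annotated gene overlapped Dnajc12, so its counts were not shared with a gene on the opposite strand.

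Other J-domain genes were not called. Of 43 genes in the table with a Dnaja, Dnajb or Dnajc symbol, 38 were tested. The 37 other than Dnajc12 had a median log2 fold change of 0.14, from -1.15 for Dnaja4 to 1.07 for Dnajc24, and 0 were called by edgeR, DESeq2 or limma-voom, with 1 at an unadjusted p under 0.05. That gene was Dnajc21, at 0.77 ± 0.29 (SE), with an edgeR adjusted p of 0.297. This family was gathered after the Dnajc12 value was known. A list of chaperones and co-chaperones was mostly cytosolic but also held the mitochondrial Hspd1 and Hspe1. Of its 26 tested genes, 0 were called by edgeR, and 0 by DESeq2 or limma-voom, with 1 at an unadjusted p under 0.05 (again Dnajc21). The list median was 0.18. Across all 11729 tested genes, 1.26% were called by edgeR and 11.7% had an unadjusted p under 0.05. With so small a share called, 0 calls in lists of this size says little. Hspa8, the constitutive HSP70 with which J-domain proteins work, had 659 CPM in diet-alcohol livers and 505.8 CPM in DSS livers on average, a difference of 0.38 ± 0.32 on the log2 scale (SE), at an edgeR adjusted p of 0.733.

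The genes whose library profile was nearest to Dnajc12 were mostly genes of secreted liver proteins. Likeness was the root mean square difference of log2 CPM, each gene centred on its own mean over the 8 libraries, among 9585 tested genes with a mean of at least 2 CPM. Hp, which encodes the haemoglobin-binding protein haptoglobin, was nearest at 0.376. Serpina3n, a protease inhibitor of plasma, followed at 0.414, then Orm1, an orosomucoid, at 0.424, and Fgl1, a fibrinogen-like protein, at 0.469. Tifa, an adaptor of NF-kappaB signalling and not a secreted protein, came next at 0.522. The other 8 genes of the route lay at 1.36 (Gstz1) to 1.83 (Gch1) from Dnajc12 on the same measure.

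Since all 5 nearest genes differ between the groups, the likeness mostly reflects that difference. Hp averaged 21400 CPM in diet-alcohol livers and 3390 CPM in DSS livers, 2.66 higher on the log2 scale at an edgeR adjusted p of 0.00263. Tifa, at levels closer to those of Dnajc12, averaged 32.5 CPM in diet-alcohol livers and 6.46 CPM in DSS livers, 2.32 higher on the log2 scale at an edgeR adjusted p of 0.00413. Within the diet-alcohol group the profiles parted: Hp had its lowest diet-alcohol value in library 71, at 15299 CPM, where Dnajc12 had its highest. Serpina3n, Fgl1 and Tifa were lowest there as well, and Orm1 was lowest in library 35. Orm1 and Serpina3n have close paralogs with which the counting could have split reads.

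**Figure D2:**
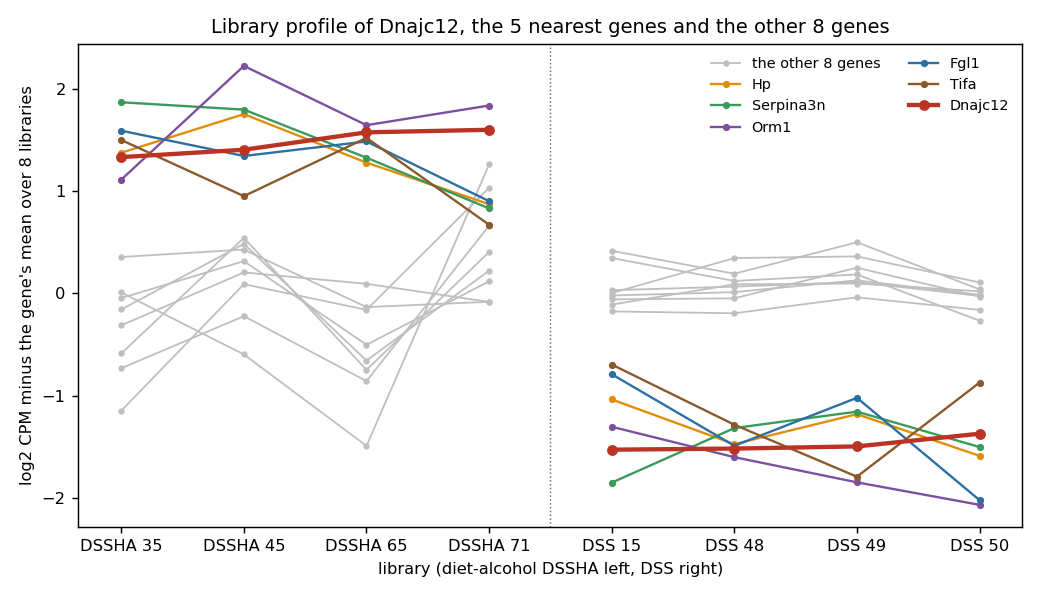
Log2 CPM minus the gene's own mean over the 8 libraries, with diet-alcohol libraries on the left and DSS libraries on the right of the dotted line; lines join libraries of a group only to show which points belong to 1 gene. Dnajc12 and its 5 nearest genes are all higher in diet-alcohol livers, while the other 8 genes of the route lie near 0 in DSS livers and scatter in diet-alcohol livers.

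The cofactor genes did not pass the test, and among diet-alcohol livers Gch1 varied most. Gch1 (ENSMUSG00000037580; chromosome 14, 47153895 to 47189413, minus strand), GTP cyclohydrolase, the rate-limiting enzyme of tetrahydrobiopterin synthesis, had 55.8, 36.6, 19.7 and 132.9 CPM in diet-alcohol libraries 35, 45, 65 and 71, against 55.6, 70.5, 71.3 and 59.7 CPM in DSS libraries 15, 48, 49 and 50. Library 71 was above all DSS libraries and libraries 45 and 65 were below all of them, a spread of 6.76-fold among diet-alcohol livers against 1.28-fold among DSS livers. Its log2 fold change was -0.07 ± 0.46 (SE), with a 95% interval from -1.08 to 0.94, so a difference of nearly 2-fold either way was within the error. Its sign and size depended on single libraries: it was -0.78 without library 71 and 0.22 without library 65. Limma-voom gave -0.40 and the fit with a mitochondrial covariate gave -1.15, neither past the test.

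Pcbd1 (ENSMUSG00000020098; chromosome 10, 61089331 to 61094324, plus strand), the pterin carbinolamine dehydratase, had 64.1, 82.4, 46.7 and 71.9 CPM in diet-alcohol libraries 35, 45, 65 and 71, against 63.6, 64.0, 78.8 and 64.8 CPM in DSS libraries 15, 48, 49 and 50. The ranges overlapped, with library 65 lowest, and the log2 fold change was -0.03 ± 0.22 (SE; 95% interval -0.51 to 0.44). Qdpr (ENSMUSG00000015806; chromosome 5, 45434021 to 45450236, minus strand), the reductase that completes the recycling, had 52.7, 115.5, 47.2 and 104.9 CPM in the same diet-alcohol libraries, against 100.7, 86.2, 90.1 and 65.8 CPM in the DSS libraries. Its diet-alcohol livers fell into a pair above all DSS values, libraries 45 and 71, and a pair below all of them, libraries 35 and 65. Its log2 fold change was -0.10 ± 0.31 (SE; 95% interval -0.77 to 0.58), and it was 0.36 without libraries 35 and 65.

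The other tetrahydrobiopterin genes gave 0 calls among the 7 tested of 11 listed (edgeR), with 0 at an unadjusted p under 0.05 and 0 by DESeq2 or limma-voom. Their median log2 fold change was 0.01. Pts, the synthase of the second step, averaged 10.8 CPM in diet-alcohol livers and 10.4 CPM in DSS livers. Spr, the reductase of the last step, averaged 52.1 CPM in diet-alcohol livers and 55.8 CPM in DSS livers. Gchfr, the feedback regulator of Gch1, averaged 37.3 CPM in diet-alcohol livers and 36.4 CPM in DSS livers. Among other enzymes that need the cofactor, Agmo and Nos3 were tested and not called. Agmo averaged 8.72 CPM in diet-alcohol livers and 10.2 CPM in DSS livers, and Nos3 1.88 and 1.82 CPM. Th and Tph1, the hydroxylases of dopamine and serotonin synthesis, had no count in any library. Tph2 and Nos2 had 3 and 1 counts in all diet-alcohol libraries together and 0 in the DSS libraries.

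Tat (ENSMUSG00000001670; chromosome 8, 109990437 to 109999803, plus strand), tyrosine aminotransferase, a classical glucocorticoid-induced liver enzyme, had nearly equal group means. It had 534.5, 833, 378 and 695 CPM in diet-alcohol libraries 35, 45, 65 and 71, against 587, 601, 651 and 590.2 CPM in DSS libraries 15, 48, 49 and 50. The DSS values all lay inside the diet-alcohol range, with libraries 45 and 71 above them and 35 and 65 below. On the log2 scale the difference was 0.01 ± 0.26 (SE; 95% interval -0.56 to 0.58). Of 13 tested glucocorticoid and fasting responsive liver genes other than Tat, 0 were called by edgeR (median log2 fold change -0.31), with 4 at an unadjusted p under 0.05, 3 called by DESeq2 and 1 by limma-voom.

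Hpd, which turns hydroxyphenylpyruvate into homogentisate, was the most abundant of the 9 genes, and its levels were close together among DSS livers and far apart among diet-alcohol livers. Hpd (ENSMUSG00000029445; chromosome 5, 123171807 to 123182727, minus strand) had 699.7, 1649, 1386 and 3168 CPM in diet-alcohol libraries 35, 45, 65 and 71, against 1583, 1622, 1672 and 1523 CPM in DSS libraries 15, 48, 49 and 50. Library 71 held nearly 2 times the highest DSS value and libraries 35 and 65 less than any DSS library. The highest value was 4.53 times the lowest among diet-alcohol livers and 1.10 times among DSS livers. Its log2 fold change was 0.11 ± 0.38 (SE; 95% interval -0.73 to 0.95). Without library 71 it was -0.36 and without library 35 it was 0.37, and neither passed the test.

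Hgd (ENSMUSG00000022821; chromosome 16, 37580153 to 37632020, plus strand), the dioxygenase that opens the ring of homogentisate, was the lowest of the 9 by fold change. It had 144.3, 205.4, 132.3 and 379 CPM in diet-alcohol libraries 35, 45, 65 and 71, against 320.1, 274, 339 and 246 CPM in DSS libraries 15, 48, 49 and 50. Libraries 35, 45 and 65 were below every DSS library and library 71 was above every one. Its log2 fold change of -0.45 ± 0.33 (SE) did not pass the test (edgeR adjusted p = 0.673). It was -0.88 without library 71, which did not pass either, and adjusted p ran from 0.154 to 0.991 over the alternatives.

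Gstz1 (ENSMUSG00000021033; chromosome 12, 87147165 to 87164723, plus strand), maleylacetoacetate isomerase, had the largest positive value after Dnajc12. It had 382, 402.0, 272 and 282 CPM in diet-alcohol libraries 35, 45, 65 and 71, against 264, 261, 291 and 267 CPM in DSS libraries 15, 48, 49 and 50. Libraries 35 and 45 were above all DSS values, and 65 and 71 lay within them. Its log2 fold change of 0.31 ± 0.21 (SE) did not pass the test (edgeR adjusted p = 0.658).

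Fah (ENSMUSG00000030630; chromosome 7, 84585159 to 84606722, minus strand), fumarylacetoacetase, the last enzyme of the route, varied least of the 8 enzyme genes among diet-alcohol livers. It had 341, 487.5, 451 and 399 CPM in diet-alcohol libraries 35, 45, 65 and 71, against 392, 449.8, 452 and 429 CPM in DSS libraries 15, 48, 49 and 50. The DSS values all lay inside the wider diet-alcohol range. The log2 fold change was -0.04 ± 0.20 (SE; 95% interval -0.49 to 0.41).

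**Figure D3:**
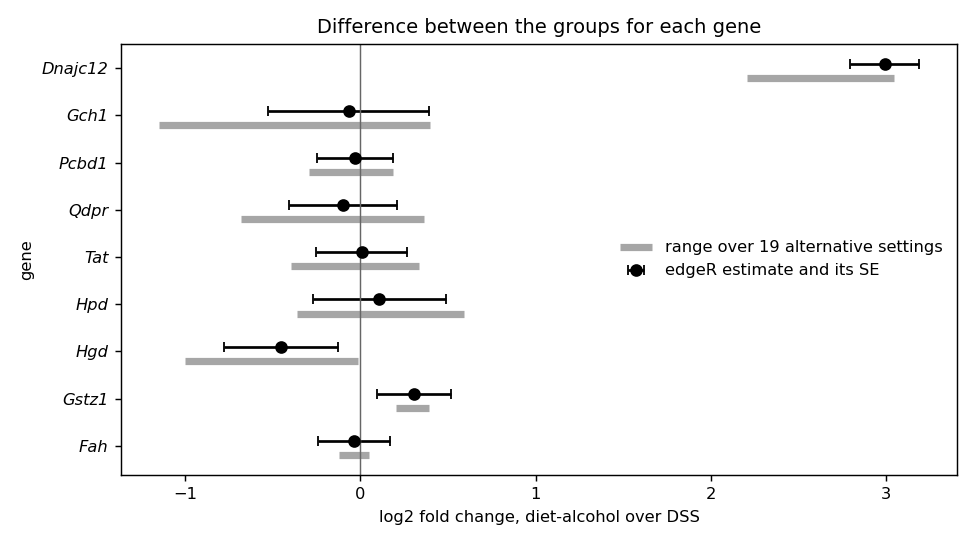
Log2 fold change of diet-alcohol over DSS livers for each gene; black points and bars are the edgeR estimate and its SE, and grey bars span the values under 19 alternative settings. Dnajc12 stands at 2.99, with its lowest value of 2.21 from the log2(FPKM + 1) scale, and the values of Gch1, Pcbd1, Qdpr, Tat, Hpd and Fah cross 0.

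Count ratios between enzymes varied more among diet-alcohol libraries than among DSS libraries. The ratio of Gstz1 to Hgd counts was 2.65, 1.96, 2.06 and 0.744 in diet-alcohol libraries 35, 45, 65 and 71, against 0.826, 0.953, 0.858 and 1.08 in DSS libraries 15, 48, 49 and 50. Libraries 35, 45 and 65 thus lay above every DSS library and library 71 below every one. The ratio of Hpd to Fah counts was 2.05, 3.38, 3.07 and 7.94 in the diet-alcohol libraries, against 4.04, 3.61, 3.70 and 3.55 in the DSS libraries, with the same library 71 on the other side of the DSS values. Hpd made up 30.3, 42.8, 49.9 and 60.0% of the counts of the 9 genes in diet-alcohol libraries 35, 45, 65 and 71, and 45.8 to 47.2% in the DSS libraries. These ratios were chosen after the gene values were seen. Each ratio is compared with itself across libraries and does not give levels per length.

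Each of the 9 genes had a wider range of log2 CPM among diet-alcohol livers than among DSS livers, and so had 72.9% of all tested genes. Dnajc12 was narrow in both groups: only 1.47% of tested genes had a narrower range among diet-alcohol livers and 1.52% among DSS livers. Its DSS values rest on 36 to 77 counts a library, where counting error is large. The gene was also picked from these same counts, so the narrow range describes these libraries only. Hpd was narrow only among DSS livers, where 0.98% of tested genes had a narrower range, against 77.3% among diet-alcohol livers. For Gch1 these shares were 83.7% among diet-alcohol livers and 11.9% among DSS livers. Within the diet-alcohol group, library 65 held the lowest value of 6 of the 9 genes and library 35 that of the other 3. Library 45 held the highest value of 5 genes, and library 71 that of Dnajc12, Gch1, Hpd and Hgd. Library 65 also had the highest mitochondrial share and library 35 few genes at low counts, and the part of either in these values was not tested.

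**Figure D4:**
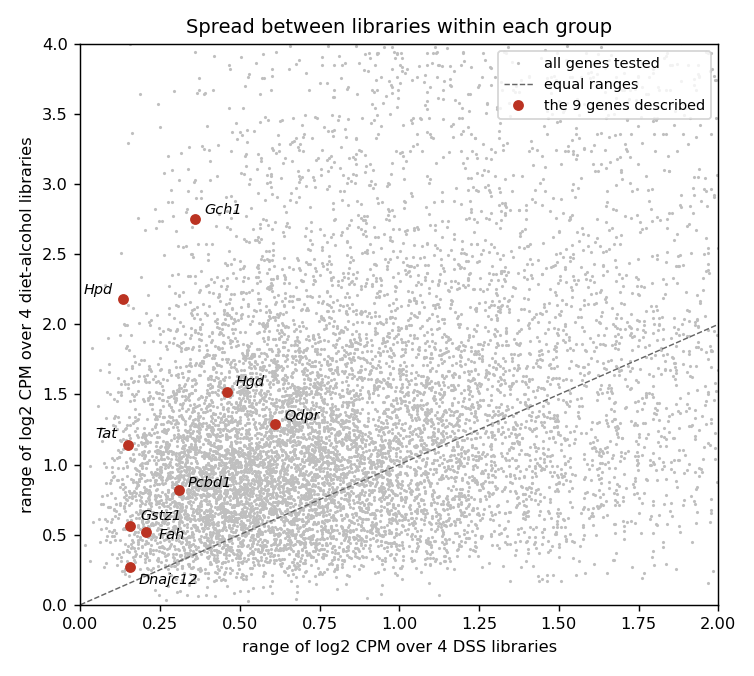
Range of log2 CPM (highest minus lowest library) over the 4 diet-alcohol libraries on the vertical axis and over the 4 DSS libraries on the horizontal axis; grey points are tested genes, of which 1795 lie outside the axes, and red points are the 9 genes. All 9 lie above the line of equal ranges, Dnajc12 close to it and Hpd and Gch1 far from it.

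Levels between genes were compared on the authors' FPKM scale, which divides by gene length. Hpd led with 793 ± 475 FPKM in diet-alcohol livers and 736 ± 31.0 FPKM in DSS livers (SD, n = 4 each). Tat, Fah, Hgd, Pcbd1, Gstz1 and Qdpr followed in that order, from 248 to 43.8 FPKM in diet-alcohol livers and from 247 to 47.0 FPKM in DSS livers. Gch1 was far lower, with 9.55 ± 7.76 FPKM in diet-alcohol livers and 10.1 ± 1.20 FPKM in DSS livers (SD, n = 4 each). Dnajc12 was last, with 8.66 ± 0.815 FPKM in diet-alcohol livers, close to Gch1, and 1.09 ± 0.0484 FPKM in DSS livers (SD, n = 4 each). The order by mean was the same in both groups. In DSS livers each gene exceeded the next in all 4 libraries, except Gstz1 over Qdpr in 3 of 4. In diet-alcohol livers neighbours were less separate: Gch1 exceeded Dnajc12 in 2 of 4 libraries, Hgd exceeded Pcbd1 in 1 of 4, and Tat exceeded Fah and Gstz1 exceeded Qdpr in 3 of 4 each. Dnajc12 had a higher mean FPKM than 84.9% of tested genes in diet-alcohol livers and than 41.5% in DSS livers, while each of Hpd, Tat and Fah was above at least 98.8% in both groups.

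Genes beside this route were not called either. Of 14 other aromatic amino acid genes, which cover transaminases, decarboxylation and transport, 11 were tested and 0 called by edgeR (median log2 fold change -0.13), with 3 at an unadjusted p under 0.05, 2 called by DESeq2 and 0 by limma-voom. Of 39 genes that break down other amino acids, all were tested and 0 called by edgeR (median -0.18), with 5 at an unadjusted p under 0.05, 2 called by DESeq2 and 0 by limma-voom. Across all 11729 genes, 1.26% were called by edgeR and 11.7% had an unadjusted p under 0.05.

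Among markers of other cell types, only 3 neutrophil genes and Marco were called higher in diet-alcohol livers, as Dnajc12 was. Of the 5 endothelial markers, 4 had negative log2 fold changes. Of 10 neutrophil markers, the 4 tested had positive log2 fold changes and S100a8, S100a9 and Retnlg were called. Retnlg had 274 counts over the diet-alcohol libraries and 9 over the DSS libraries. It thus passed the low-count filter only through the diet-alcohol group, so the filter set its direction. The summed level of the 10 markers was 29.4 to 61.6 CPM in diet-alcohol livers and 4.19 to 15.5 CPM in DSS livers, with no marker at 0 in all libraries. Of 8 Kupffer cell and macrophage markers, 7 had positive log2 fold changes (median of the list 0.54). Marco was called by edgeR, and Marco and Lyz2 had an unadjusted p under 0.05. Marco was uneven, at 156 ± 165 CPM in diet-alcohol livers against 8.99 ± 2.78 CPM in DSS livers (SD, n = 4 each). The sum of the 8 markers was 326 to 681 CPM in diet-alcohol livers and 189 to 309 CPM in DSS livers. Without Marco that sum was 258 to 470 CPM in diet-alcohol livers and 181 to 296 CPM in DSS livers, so that the groups overlapped. The 7 lymphocyte markers were all too low to test, summing to 0.833 to 4.09 CPM in diet-alcohol livers and 2.23 to 3.93 CPM in DSS livers. Endothelial, stellate and cholangiocyte markers gave 0 calls among 5, 6 and 4 tested (edgeR), and their sums overlapped between the groups. At an unadjusted p under 0.05 there were 2 endothelial genes and 0 of the other lists, with 1 endothelial gene, Kdr, called by DESeq2 and 0 by limma-voom. Within the diet-alcohol group, library 71 had the lowest neutrophil sum, 29.4 CPM, and the highest Dnajc12, and library 65 had the highest neutrophil sum, 61.6 CPM. The part of these cells in the Dnajc12 difference was not tested beyond these values.

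Overlapping annotation could touch some counts, since no source used here gives the strand setting of the counting. Hpd overlaps Psmd9 on the opposite strand, which had 3708 counts over the 8 libraries, and Gstz1 overlaps Pomt2, which had 456. The other annotated overlaps, of Hgd, Gstz1, Gch1, Qdpr and Hpd with antisense, pseudogene or long noncoding entries, had at most 30 counts.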

How the data were processed

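The 8 liver mRNA libraries were analysed from 1 deposited table. Per the file headers, it holds the authors' raw count per gene, their FPKM, their mean normalized signal per group, and the log2 fold change, p-value and adjusted p-value of the authors' own comparison. Per the submitters' processing notes the builds are GRCm38 and mm10. No source used here names the aligner, the counter or the strand setting. The deposited FPKM equal counts over gene length and 1 effective size per library.

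Counts were filtered with filterByExpr, TMM-normalized and tested with edgeR 4.0.16 (robust quasi-likelihood F test, R 4.3.3, 11729 genes, adjusted p under 0.05). Log2 CPM used a prior count of 2. Intervals and counting depth cover the spread between libraries and counting error only. The procedure was also run on simulated counts that gave both groups the same spread, unlike these data. No result here rests on that run. Alternatives were other normalizations and filters, a non-robust fit, DESeq2 1.42.0, limma-voom and limma 3.58.1 on log2(FPKM + 1), mitochondrial genes left out or their share as a covariate, and leaving out each library; leaving out libraries 35 and 65 together was added after the data were seen.

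The members and lists were chosen with earlier results of these data known. Named are all 9 members, up to 4 called genes per list, and the 5 genes nearest to Dnajc12; any other gene, such as Hspa8, Pts, Spr and Gchfr, was picked with its values known.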

Additional observations from a re-analysis of the deposited data

Results flagged for a closer look

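Pcbd1 in DSS library 49 lay apart from the other 3 DSS libraries, at 78.8 CPM where they ran from 63.6 to 64.8 CPM; its gap to the nearest was 0.921 of the group's range. Of 18 groups of 4 libraries examined (9 genes in each group), this was the 1 found, and chance flags about 1 in 20.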

How the results depend on the processing

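Dnajc12 kept its direction and its call under all 19 alternatives, with log2 fold changes from 2.21 (limma on log2(FPKM + 1), a scale that understates changes of low genes) to 3.04, and it was the 1 member called under each. None of the 8 other members was called under any alternative (152 values, lowest adjusted p 0.154). Hgd and Gstz1 kept their signs, and 23 of the 152 values had the other sign. With limma-voom Tat was -0.069 and Hpd -0.11; on log2(FPKM + 1) they were -0.053 and -0.092. With the mitochondrial share as a covariate Tat was -0.39, Hpd -0.23 and Fah 0.0083. Leaving out 1 library gave the other sign for Qdpr (-0.33 to 0.086), Pcbd1 (-0.16 to 0.10), Gch1 (-0.78 to 0.22), Tat (-0.18 to 0.18), Hpd (-0.36 to 0.37) and Fah (-0.12 to 0.051). Without libraries 35 and 65, chosen after the data were seen, Qdpr was 0.36, Pcbd1 0.19, Gch1 0.40 and Fah 0.043. The number of called genes, 148, was 484 with DESeq2, 320 without a low-count filter, 55 with the mitochondrial covariate, 360 without libraries 35 and 65, and 58 to 308 when 1 library was left out. The causes were not tested. No paired analysis was possible because no number in the labels occurs in both groups. With 4 libraries a group, a difference of 2-fold in Gch1 lies near the edge of its interval.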

Other observations

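Some genes beside the tyrosine route had larger differences than its enzymes without passing the edgeR test; they were chosen after their values were seen. Got1, the cytosolic aspartate aminotransferase, averaged 91.0 CPM in diet-alcohol livers and 245.8 CPM in DSS livers, -1.43 ± 0.44 on the log2 scale (SE), at adjusted p of 0.173 with edgeR and 0.0292 with DESeq2. Ddc, aromatic amino acid decarboxylase, averaged 10.4 CPM in diet-alcohol livers and 19.8 CPM in DSS livers (-0.92 ± 0.22 on the log2 scale, SE), at adjusted p of 0.0855 with edgeR and 0.00683 with DESeq2. Sds, serine dehydratase, stood at -1.40 and Gls2, the liver glutaminase, at -1.32 (DESeq2 adjusted p = 0.0257 and 0.0223). In the glucocorticoid and fasting list, Fkbp5, a chaperone of the glucocorticoid receptor, stood at 0.80 (adjusted p of 0.108 with edgeR and 0.00883 with DESeq2). G6pc, glucose-6-phosphatase, stood at -1.55 (adjusted p of 0.0924 with edgeR and 0.00408 with DESeq2). Per1, a clock gene, stood at -1.22 (adjusted p of 0.0900 with edgeR and 0.0113 with DESeq2). Sult1e1, an oestrogen sulfotransferase of the same list, was too uneven to pass the low-count filter: it had 411 counts in the diet-alcohol libraries together and 0 in the DSS libraries.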
